A study of Homo sapiens with 6 samples.

Results

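The genes described here are CD180, the Toll-like receptors TLR1, TLR2, TLR4, TLR5, TLR6 and TLR8, and the co-receptors LY86, LY96 and CD14, which are 10 of the 19775 genes measured. A probe set was used where the platform annotation named exactly 1 of these genes, and 15 probe sets did so. For each gene the probe set with the highest mean over all 6 arrays gave the main value, and the 5 further probe sets, of TLR4, TLR6 and TLR8, are shown beside it. The genes were selected on the cortistatin A minus DMSO changes of these same arrays, in which CD180 had been seen among the higher genes, and the others were grouped around it by family and by their measured values. Their changes are therefore given as a description with no test of their own, and they support nothing further.

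RNA was hybridised to 1-colour Affymetrix U133 Plus 2.0 arrays from MV4;11, an acute myeloid leukaemia line whose cells carry the MLL-AF4 fusion. Of 6 wells, 3 received the solvent DMSO and 3 received 25 nM cortistatin A, each for 3 h. Cortistatin A is a steroid-like alkaloid first isolated from a marine sponge and blocks the Mediator kinases CDK8 and CDK19. All 6 arrays come from this 1 cell line, and the labels name no further agent or engineered allele. The labels do not say that the wells were separate cultures, so each p-value and error covers only the spread among these 6 samples, and that spread may be technical. Across genes, the correlation of 2 arrays was 0.9975 to 0.9979 within a group and 0.9969 to 0.9974 between groups.

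Toll-like receptors are membrane proteins that sense microbial products through an outer domain of leucine-rich repeats and signal through an inner TIR domain. TLR4 binds lipopolysaccharide together with LY96 (MD-2), and CD14 hands the lipid to this complex. TLR2 pairs with TLR1 or TLR6 to recognise lipopeptides, TLR5 recognises bacterial flagellin, and TLR8 recognises single-stranded RNA in endosomes. CD180 (RP105) resembles TLR4 in its outer domain, lacks the TIR domain and reaches the surface with LY86 (MD-1), a relative of LY96. In B cells CD180 promotes proliferation, and in myeloid cells it is known as a brake on TLR4. Monocytes and B cells are its usual sources.

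The labelled cell type was checked against marker genes. Of 13 measured myeloid markers 12 lay above the median of all probe sets, here called bright, with LYZ at a mean log2 signal of 12.41 and CEBPA at 10.64, and KIT and CEBPA rose over all genes (limma adjusted p = 0.0227 and 0.0248). The monocyte Fc receptor FCGR1A lay below that median, which makes it dim. Of 9 measured B cell markers 5 were bright, among them CD79A (5.12) and PAX5 (4.34), while MS4A1, FCRLA, CR2 and EBF1 were dim. The summed log2 level of the B cell markers lay between 31.31 and 31.96 on the DMSO arrays and between 31.10 and 32.67 on the treated arrays, which overlap. That of the myeloid markers lay between 90.35 and 91.36 on the DMSO arrays and between 92.27 and 93.12 on the treated arrays, with no overlap. Not all of these 13 markers moved alike, as 10 had a higher mean and 3 a lower one. KIT (0.54) and CEBPA (0.42) had large rises, LYZ (0.02) and SPI1 (0.0016) hardly changed. FLT3 was at -0.20 with no overlap (limma adjusted p = 0.196). The summed level of 7 dendritic cell markers, 3 of them bright, did not overlap either (28.81 to 29.58 against 29.75 to 30.21), while those of 9 T and NK cell markers and of 7 erythroid and platelet markers did. Of the 9 T and NK cell markers 5 were bright, and of the 7 erythroid and platelet markers 5. Bright alone thus does not mark a cell type. The part of the myeloid and dendritic levels in the results below was not tested.

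The 250 bases before the start sites of CD180, LY86 and TLR4 are shown because CD180 and TLR4 had the largest positive changes of the 10 genes, while LY86 is the partner of CD180 and had almost none. They are RefSeq sequences of build GRCh38.p14, 5' to 3' on the strand of the gene. Capitals mark the hexamer AGGAAG, the core bound by PU.1 and other ETS factors, on either strand.
CD180 (chr5:67196800-67197049, minus strand): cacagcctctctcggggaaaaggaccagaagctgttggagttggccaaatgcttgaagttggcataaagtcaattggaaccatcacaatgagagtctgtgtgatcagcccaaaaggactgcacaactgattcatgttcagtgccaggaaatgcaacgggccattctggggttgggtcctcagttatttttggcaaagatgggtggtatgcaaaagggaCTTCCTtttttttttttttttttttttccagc
LY86 (chr6:6588470-6588719, plus strand): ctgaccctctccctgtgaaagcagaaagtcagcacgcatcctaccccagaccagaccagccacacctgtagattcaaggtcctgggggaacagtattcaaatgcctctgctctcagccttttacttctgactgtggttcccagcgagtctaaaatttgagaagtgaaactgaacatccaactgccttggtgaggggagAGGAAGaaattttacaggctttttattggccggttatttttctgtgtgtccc
TLR4 (chr9:117704153-117704402, plus strand): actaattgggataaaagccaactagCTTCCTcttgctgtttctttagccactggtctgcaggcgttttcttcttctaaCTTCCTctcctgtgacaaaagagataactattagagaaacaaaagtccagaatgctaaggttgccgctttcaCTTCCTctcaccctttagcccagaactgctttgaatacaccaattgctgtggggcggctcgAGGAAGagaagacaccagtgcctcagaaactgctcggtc
The CD180 window holds AGGAAG once, on the strand opposite to the gene (printed as CTTCCT), with its first printed base at -32 from the start. The LY86 window holds it once, on the strand of the gene at -52. The TLR4 window holds it 4 times, at -225, -172 and -100 on the opposite strand and at -39 on the strand of the gene. Among all 35116 RefSeq windows of this length 28.7% hold AGGAAG. Of the 10 genes 8 had a window in the table, and 7 of these 8 hold AGGAAG. The C/EBP pattern TTGCNNAA, read on both strands, was found in CD180 at -63 and in TLR8 at -108, against 9.05% of all windows. It does not overlap the hexamer in either. The TATA box TATAAA, read on both strands, was found in 0 of the 8 windows, against 10.7% of all windows. The patterns were chosen with the changes known, and a match is a description of the letters only.

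CD180 was higher with cortistatin A, and it was the only 1 of the 10 genes past the threshold in the fit over all genes (limma, Benjamini-Hochberg adjusted p under 0.05). In that fit 0.582% of all genes passed, and 0.445% passed with higher values in cortistatin A. Because the genes were picked with this contrast known, nothing is read from 1 of 10. The sizes ranged from 0.73 higher for CD180 to 0.34 lower for TLR1 on the log2 scale. Of the 10 genes 7 had a higher mean with the drug and 3 a lower one, with a median change of 0.07. Among all 19775 genes 10364 had a higher mean and 9411 a lower one, with a median of 0.0065. The groups did not overlap for 4 of the 10, namely CD180, TLR4 and TLR2 on the higher side and TLR1 on the lower side. They did not overlap for 19.5% of all genes, 10.3% on the higher and 9.27% on the lower side. CD180, LY86, TLR1, TLR2 and TLR4 were bright, and the other 5 genes were dim in both groups. TLR4 (5.19) and TLR1 (4.28) were low among the bright ones, near markers of other lineages such as GP9 (5.15), CD5 (5.05) and HBB (4.70). Bright thus does not show that TLR4 and TLR1 stand above background.

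**Figure D1:**
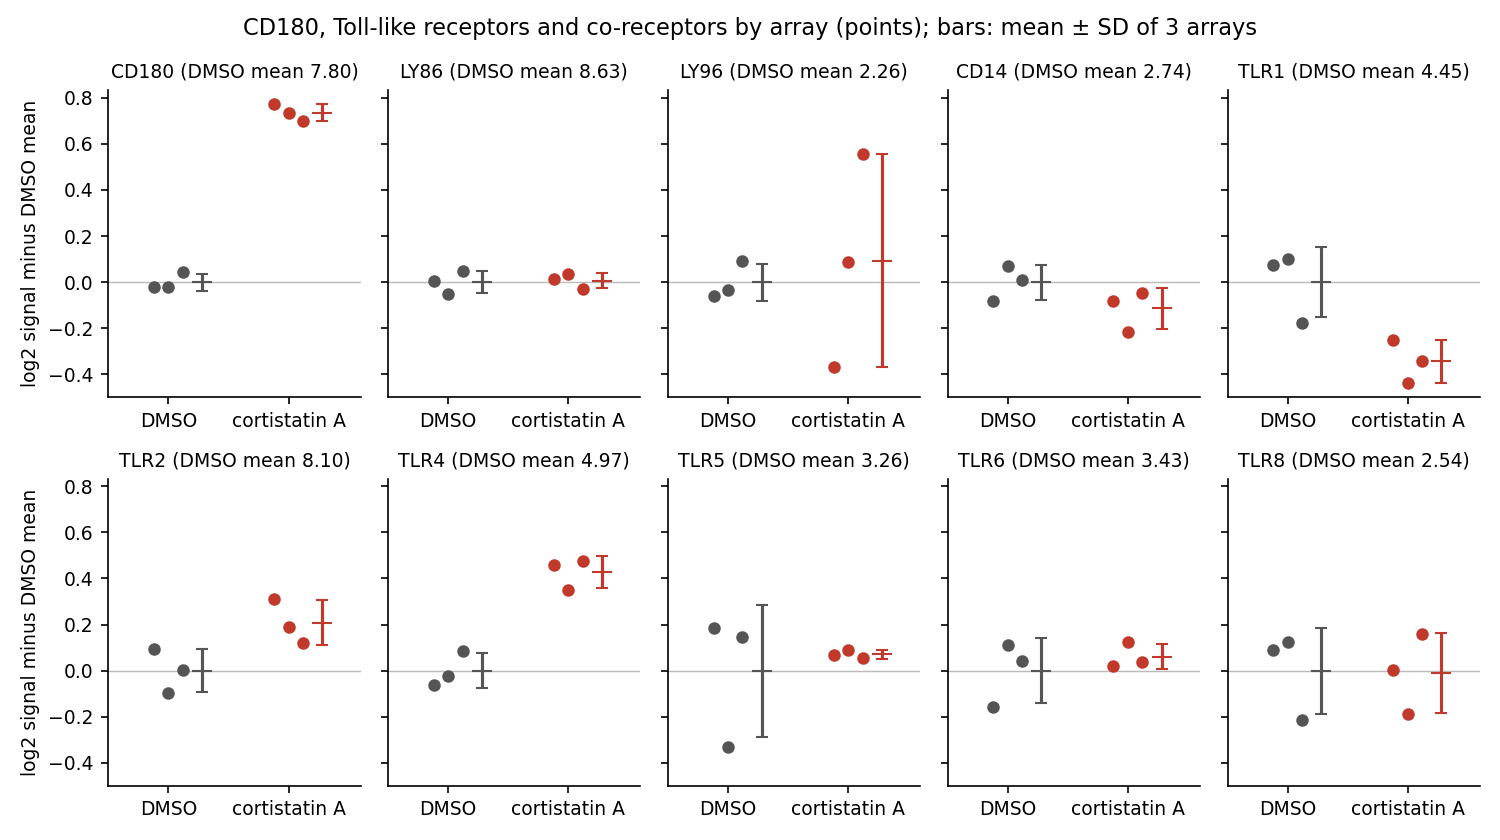
Each panel plots 1 gene on its main probe set, with the log2 signal of each array minus the mean of the 3 DMSO arrays on the vertical axis and the 2 groups on the horizontal axis; crossbars are means and whiskers are SD (n = 3). The cortistatin A arrays of CD180 lie 0.70 to 0.77 above the DMSO mean, those of LY86 lie around 0, those of TLR1 lie below it, and those of LY96 spread on both sides.

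CD180 read 7.78, 7.78 and 7.84 on the DMSO arrays and 8.57, 8.53 and 8.50 on the cortistatin A arrays, in log2 signal. All 3 treated arrays lay far above all 3 controls, and both groups were tight. The means were 7.80 ± 0.04 and 8.53 ± 0.04 (SD, n = 3 each), a rise of 0.73 ± 0.05 (limma standard error), or 1.66-fold. The 95% interval of the rise was 0.62 to 0.85, which does not allow for the choice of CD180 on these values. By signed change CD180 was number 11 from the top among 19775 genes. CD180 has 1 probe set, so no other part of the transcript was read.

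LY86, the small secreted partner that CD180 needs to reach the cell surface, was nearly the same in both groups. It read 8.64, 8.58 and 8.68 in DMSO and 8.64, 8.67 and 8.60 in cortistatin A. The 2 groups covered almost the same range. The difference was 0.006 ± 0.051 with a 95% interval of -0.12 to 0.13, so the largest change within it was 1.09-fold. The intervals of CD180 and LY86 lie apart, but the choice of the pair used these values and their difference was not tested.

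TLR4, the lipopolysaccharide receptor, had the second largest positive change of the 10 genes and did not pass the threshold over all genes. Its main probe set read 4.91, 4.95 and 5.06 in DMSO and 5.43, 5.32 and 5.45 in cortistatin A. Every treated array lay above every control. The difference was 0.43 ± 0.06, or 1.35-fold (95% interval 0.28 to 0.58), number 111 from the top among all genes.

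TLR4 is also the gene with the most probe sets, and the 3 others had positive changes of unequal size. The dim probe set 232068_s_at read 3.39, 3.51 and 3.35 in DMSO and 3.90, 3.85 and 4.03 in cortistatin A, again with no overlap and a difference of 0.51 ± 0.07. The bright probe set 1552798_a_at read 4.60, 4.60 and 4.71 against 5.01, 4.88 and 4.70, where the lowest treated array fell just under the highest control (0.23 ± 0.09). The dim probe set 221060_s_at read 3.24, 2.99 and 3.24 against 3.47, 3.23 and 3.51, and the groups overlapped (0.25 ± 0.10). The main probe set, 224341_x_at, is of a type that can bind related transcripts. With the types _x_at and _s_at left out TLR4 rests on 1552798_a_at, at 0.23, and did not pass the threshold. TLR4 passed in 4 of 16 alternatives. These were dim genes left out, a further quantile normalization, trend and robust variances, and an adjusted p under 0.1. The last is the main fit at a looser threshold.

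The partners of TLR4 were dim. LY96, which binds the lipid part of lipopolysaccharide inside the TLR4 complex, read 2.20, 2.23 and 2.35 in DMSO and 1.89, 2.35 and 2.82 in cortistatin A. The treated arrays lay on both sides of the controls. Their SD was 0.46 against 0.08 in DMSO, and the 95% interval of the difference, -0.42 to 0.60, reaches 1.52-fold on the higher side. Without cortistatin A replicate 1 the difference was 0.32, and without replicate 3 it was -0.14. CD14, the surface protein that delivers lipopolysaccharide, read 2.66, 2.81 and 2.75 in DMSO and 2.66, 2.53 and 2.70 in cortistatin A, and the groups overlapped. Its difference was -0.11 ± 0.07, with -0.06 when cortistatin A replicate 2 was left out and -0.21 with the 3' minus 5' control index described at the end. Near the floor RMA compresses changes, so the values of these genes bound little, and a transcript at this signal cannot be told from background here.

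**Figure D2:**
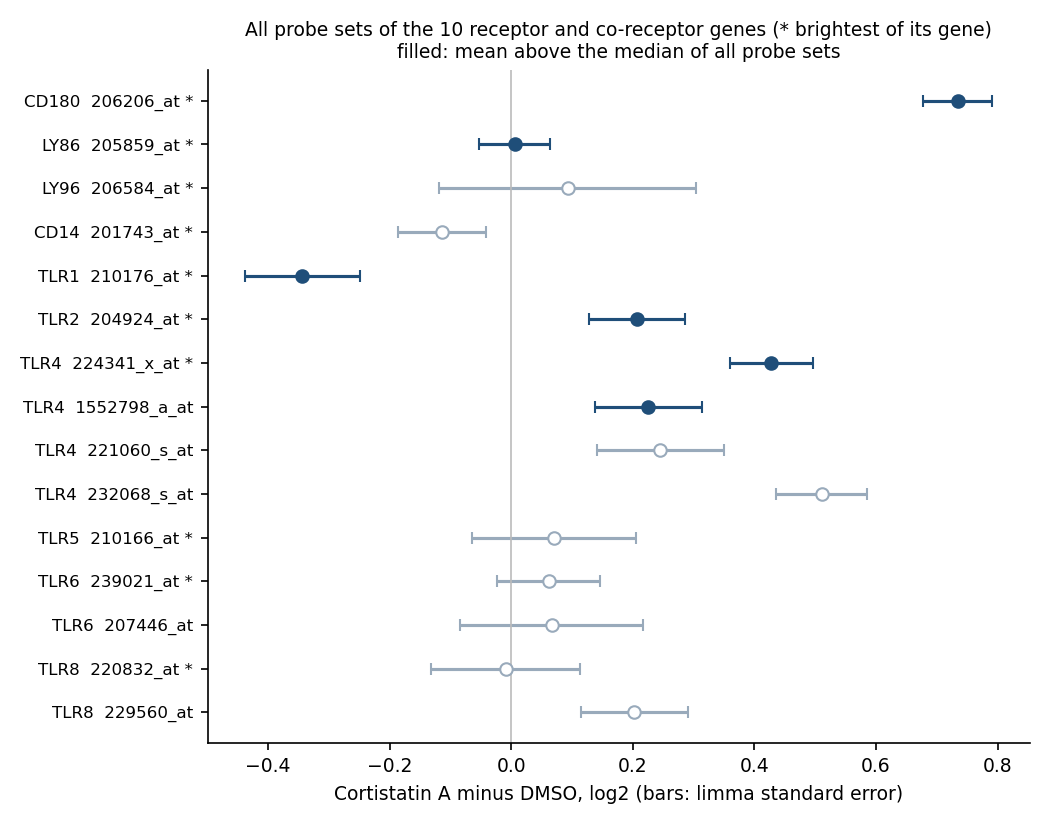
The horizontal axis is the cortistatin A minus DMSO difference in log2 signal for each of the 15 probe sets, with limma standard errors from the fit of all probe sets; filled points are bright, open points are dim, and a star marks the brightest probe set of its gene. All 4 TLR4 probe sets lie to the right of 0, between 0.23 and 0.51, and the single CD180 probe set lies farthest right at 0.73.

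TLR2, TLR1 and TLR6, the receptors for lipopeptides, had changes of unlike size and sign, and the differences between them were not tested. TLR2, the chain common to both heterodimers, read 8.20, 8.01 and 8.11 in DMSO and 8.42, 8.29 and 8.22 in cortistatin A. All treated arrays lay above the controls, though the lowest treated array exceeded the highest control by little. The difference was 0.21 ± 0.07, or 1.15-fold, and did not pass over all genes. TLR1, which pairs with TLR2 for triacylated lipopeptides, read 4.52, 4.55 and 4.27 in DMSO and 4.20, 4.01 and 4.11 in cortistatin A. All treated arrays lay below the controls, and the difference of -0.34 ± 0.09 did not pass over all genes either. At a mean of 4.28, TLR1 lay near T and NK cell markers such as CD3E (4.39) and NCAM1 (4.35). Whether its signal stands above background was not tested. TLR6, which pairs with TLR2 for diacylated lipopeptides, was dim on both of its probe sets. Its main one read 3.27, 3.54 and 3.47 in DMSO and 3.45, 3.55 and 3.46 in cortistatin A, with overlapping groups and a difference of 0.06 ± 0.08. The other probe set of TLR6 was at 0.07 ± 0.15. TLR1 and TLR6 are close relatives in sequence, and binding of one transcript to the probes of the other was not tested.

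TLR5 and TLR8 were dim and overlapped between the groups. TLR5, the flagellin receptor, read 3.44, 2.93 and 3.41 in DMSO and 3.33, 3.35 and 3.31 in cortistatin A, so that 1 control array stood low and the treated arrays were close together. Its difference was 0.07 ± 0.14. TLR8, the endosomal RNA receptor, read 2.63, 2.66 and 2.32 in DMSO and 2.54, 2.35 and 2.70 in cortistatin A, with a difference of -0.0093 ± 0.1221. Its other probe set lay lower still, at 1.44 ± 0.08 for the controls and 1.65 ± 0.14 for the treated arrays (SD, n = 3), and overlapped as well. The sign turned for TLR5 without DMSO replicate 2 (-0.095) and for TLR6 without DMSO replicate 1 (-0.017). It turned for LY86 without DMSO replicate 2 or cortistatin A replicate 2, and for TLR8 without cortistatin A replicate 2 and without either of DMSO replicates 1 and 2. Other alternatives also turned LY86 (further quantile normalization), TLR6 (the control index) and TLR8 (the mean of probe sets, housekeeping centring and the control index). LY86, LY96, TLR5, TLR6 and TLR8 passed the threshold in 0 alternatives.

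The pattern of CD180 over the 6 arrays was compared with the 12642 other bright genes. The 5 genes with the highest Pearson r were CCR1 (r = 0.998), FOSL2 (0.997), SLC15A4 (0.997), TIFAB (0.997) and ABHD15 (0.997), and 31 genes had an r over 0.99. With 2 groups that stand apart, any tight gene that changed with the drug correlates this way, and the points share the array and its normalization, so r is a description. The limma p-values of these 5 genes come from the fit over all genes. As the genes were picked by that r, the p-values add no separate support. CCR1, a chemokine receptor of monocytes, rose from 9.34 ± 0.02 to 9.94 ± 0.03 (SD, n = 3), or 1.52-fold (limma adjusted p = 0.0110). TIFAB, named for its likeness to the adaptor TIFA, rose 1.84-fold (limma adjusted p = 0.00838). FOSL2, an AP-1 factor, rose 1.37-fold (limma adjusted p = 0.0208), and ABHD15 stood at 0.27 (limma adjusted p = 0.0782). With the mean of all probe sets FOSL2 was at 0.28 and no longer passed. Among the other receptor and co-receptor genes the r with CD180 ran from -0.87 for TLR1 to 0.97 for TLR4, with 0.15 for LY86.

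**Figure D3:**
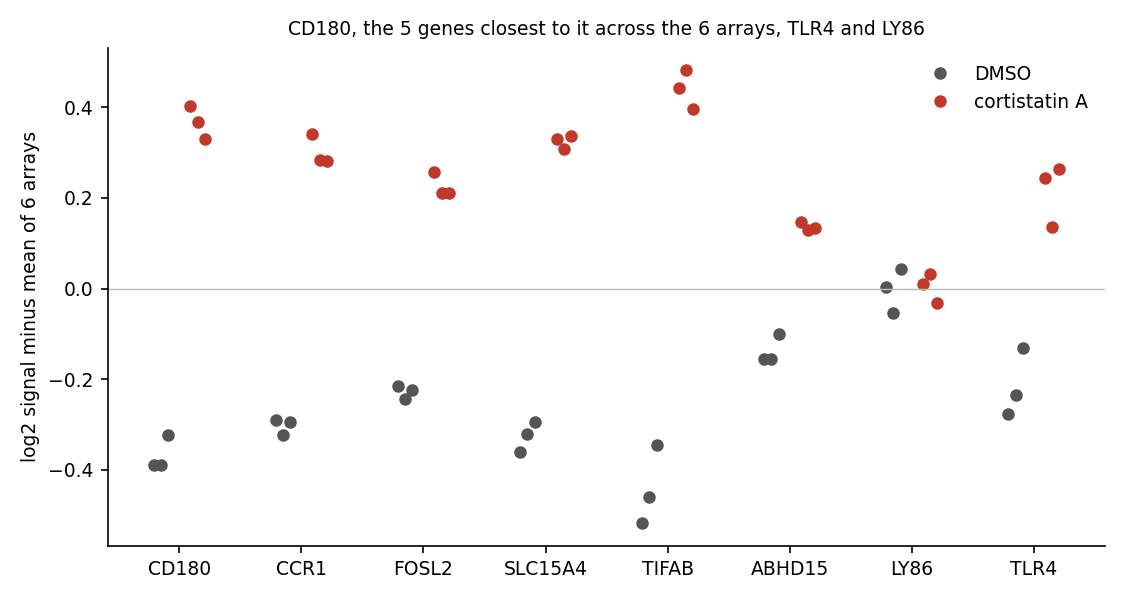
The vertical axis is the log2 signal of each array minus the mean of the 6 arrays for the gene named on the horizontal axis; grey points are DMSO arrays and red points are cortistatin A arrays (n = 3 each). For CD180, its 5 closest genes and TLR4 the red points all lie above the grey ones, with the widest gap for TIFAB (0.88 between means), while for LY86 they mix.

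The rest of the pathway was read from 11 lists with 122 measured genes outside the 10. Only SLC15A4 passed the threshold over all genes, so 1 of 122 rose and 0 fell (0.582% of all genes passed). An unadjusted limma p under 0.05 was reached by 27 of the 122, and by 12.6% of all genes. The median change over the 122 genes was 0.02, against 0.0065 over all genes, with 68 higher and 54 lower in the mean. The groups did not overlap for 37 of them, against 19.5% of all genes and 25.1% of bright genes. Of the 122 genes 89 were bright, as were 12643 of all 19775 genes.

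SLC15A4, a transporter of the endolysosome that also serves as the platform for signalling by the endosomal Toll-like receptors, read 7.92, 7.96 and 7.98 in DMSO and 8.61, 8.59 and 8.62 in cortistatin A. All treated arrays lay above the controls, and the spread within each group was small. It rose by 0.65 ± 0.05, or 1.57-fold (limma adjusted p = 0.00838). A further bright probe set read 0.62 higher, and a dim one was at 0.16. TASL, the adaptor that binds SLC15A4 and brings in IRF5, stood on the other side. It read 9.88, 9.99 and 10.00 in DMSO and 9.51, 9.39 and 9.62 in cortistatin A. All treated arrays lay below the controls, and the difference of -0.45 ± 0.07 did not pass over all genes (limma adjusted p = 0.0720). TASL was measured by 1 probe set, 220252_x_at, of a type that can bind related transcripts. IRF5, the factor that the pair activates, was at 0.19 ± 0.06 and did not pass (limma adjusted p = 0.284).

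Of 4 further Toll-like receptors 0 passed. TLR7, a sensor of single-stranded RNA, was dim and stood at 0.38 (limma adjusted p = 0.334), with its other probe set at 0.02. Without DMSO replicate 3 TLR7 was at 0.24. TLR9, a sensor of DNA, was bright and stood at 0.19 (limma adjusted p = 0.417). TLR3 and TLR10 were dim, at 0.04 and -0.0093, and the sign of TLR3 turned without DMSO replicate 3 or cortistatin A replicate 2. Among 11 genes of receptor trafficking and processing 10 were bright, 1 rose (SLC15A4) and 0 fell, with a list median of -0.04. UNC93B1, which escorts endosomal receptors from the endoplasmic reticulum, was at -0.14 (limma adjusted p = 0.523). Without DMSO replicate 2 it was at -0.08, averaging its probe sets gave -0.04, and a dim probe set stood at 0.17. CTSS, an endosomal protease, was at -0.12 (limma adjusted p = 0.548), and averaging its probe sets put it at 0.001. The folding factor CNPY3 was at 0.07 (limma adjusted p = 0.663).

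Of 12 accessory proteins and ligands 0 passed, and the list median was 0.03. CD44 was at 0.15, the scavenger receptor CD36 at 0.17 and the alarmin S100A9 at 0.13, with limma adjusted p from 0.297 to 0.349. Of the 5 probe sets of CD36, 2 had negative values (-0.06 and -0.05), and averaging all 5 gave 0.07. With the control index CD44 was at 0.09. The 5 adaptors gave 0 calls and a median of -0.04, with MYD88, the shared adaptor of most Toll-like receptors, at -0.04 (limma adjusted p = 0.820). TICAM1, the adaptor of TLR3 and TLR4, was at -0.06, and its sign turned without DMSO replicate 1 and with the control index. Of 17 kinases and ubiquitin ligases, all of them bright, 0 passed and 13 had a lower mean, with a list median of -0.04. Among all 19775 genes 9411 had a lower mean and 10364 a higher one. An unadjusted limma p under 0.05 was reached by 2 of these 17 genes. TBK1, the kinase of IRF3, was at -0.21 (limma adjusted p = 0.239). TRAF6, the ubiquitin ligase that relays MYD88 signals, was at -0.20 (limma adjusted p = 0.267), and its other bright probe set was at -0.41 with no overlap. MAP3K7, the kinase TAK1, was at -0.09 (limma adjusted p = 0.567). Of the 3 interferon regulatory factors of the pathway 0 passed, with IRF7 at -0.15 (limma adjusted p = 0.314) and IRF3 at -0.03, whose sign turned with housekeeping centring.

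Of 17 negative regulators 0 passed, while 14 had a higher mean and the list median was 0.05. Among all 19775 genes 10364 had a higher mean and 9411 a lower one. An unadjusted limma p under 0.05 was reached by 2 of these 17 regulators. IRAK3, which blocks release of the IRAK kinases from the receptor complex, read 7.92, 8.02 and 8.12 in DMSO and 8.29, 8.15 and 8.40 in cortistatin A. Its groups did not overlap, and it stood at 0.26 (limma adjusted p = 0.274). TNFAIP3, the ubiquitin-editing enzyme A20, was at 0.21 (limma adjusted p = 0.223), with its other probe set at 0.17. The deubiquitinase CYLD was at -0.12 (limma adjusted p = 0.469). Its further bright probe sets were at -0.14, -0.13 and -0.21, except 1 of low mean signal (3.89) at 0.27. Among 16 early target genes of these receptors 0 passed and the median was 0.0012, with 8 higher and 8 lower in the mean. TNF read 5.93, 5.92 and 5.86 in DMSO and 6.14, 6.30 and 6.18 in cortistatin A, with no overlap and a difference of 0.30 (limma adjusted p = 0.109). NFKBIA, the inhibitor of NF-kB and an early target of it, was at -0.29 on its main probe set (limma adjusted p = 0.146), and at 0.02 on a dim one. IFNB1, the gene of interferon beta, was dim and stood at 0.33 (limma adjusted p = 0.217). The direction of these lists was not tested.

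**Figure D4:**
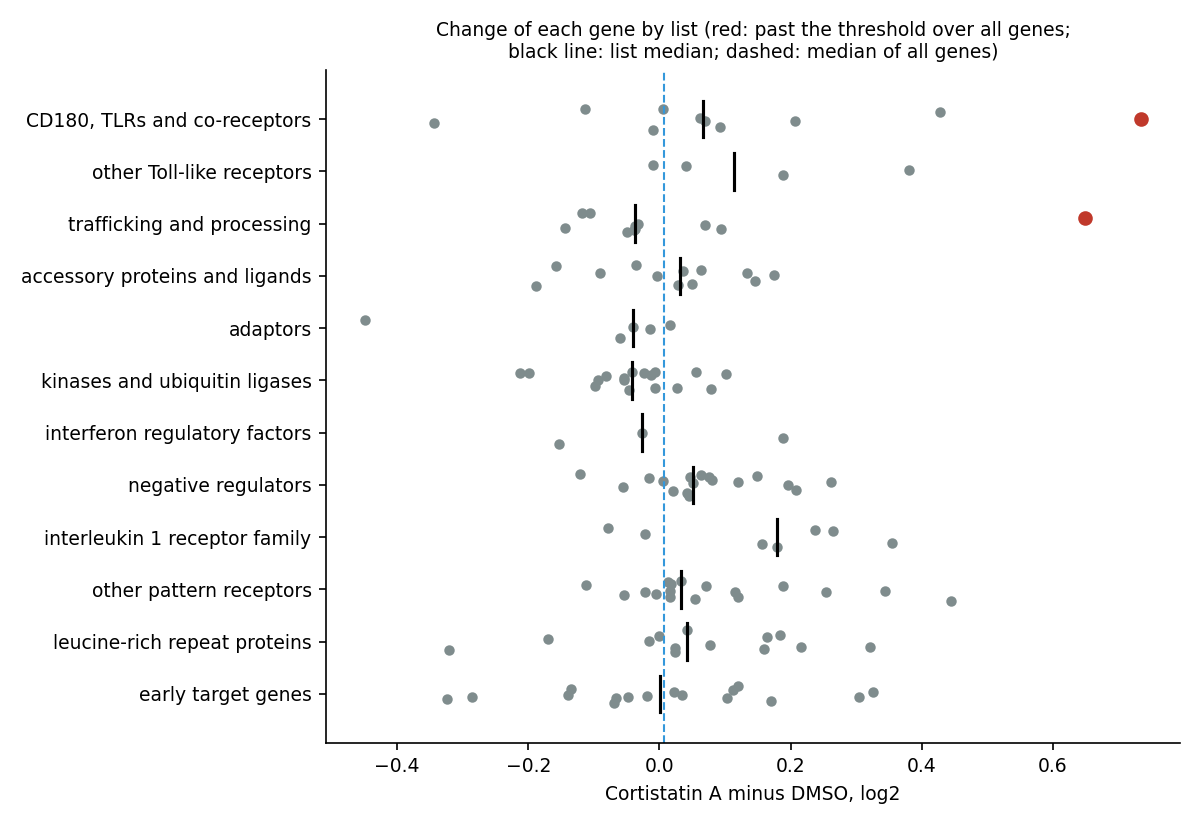
Each point is 1 gene, placed by its cortistatin A minus DMSO difference in log2 signal on the horizontal axis within its list on the vertical axis; black lines are list medians and the dashed line is the median of all genes at 0.0065. The red points past the threshold are CD180 (0.73) and SLC15A4 (0.65), and the other genes lie between -0.45 and 0.45.

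The calls of CD180 and SLC15A4 ended without any 1 of the 6 arrays, where limma called 0 to 4 genes in all and 1952 to 2342 passed an unadjusted p of 0.05, while the change of CD180 stayed between 0.72 and 0.76. The beta-actin control probe sets compare the 3' with the 5' end of a transcript. They differed by 1.69 to 1.79 log2 units on the control arrays and by 1.88 to 2.08 on the treated arrays, with no overlap. An index of 12 control pairs served as a covariate. It pools human transcripts, beta-actin and GAPDH among them, with bacterial control transcripts, which do not report on the RNA of the cells. With this covariate CD180 was at 0.70 and SLC15A4 at 0.61, 0 genes passed and 1380 had an unadjusted limma p under 0.05. That index read 1.77 to 1.85 on the DMSO arrays and 1.87 to 1.90 on the treated ones, so covariate and group share much of their spread, while the GAPDH control overlapped (1.04 to 1.13 against 1.12 to 1.17).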

How the data were processed

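The deposited table holds 1 log2 signal per probe set and array, made by the authors with RMA in the affy package, per the submitters' processing notes, with no version given. The values, 0.81 to 13.84, were taken as log2. RMA equalises the arrays, so a shift of all transcripts would be removed, and changes near background are compressed. Array medians were 3.74 to 3.77. RNA was isolated by column or TRIzol, per the labels' protocols, and the sources used here do not say which array used which.

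Of 54675 probe sets 41091 named 1 gene, 1801 several and 11721 none in the annotation used. Symbols were updated through RefSeq gene identifiers for 41037. All 19775 genes entered 1 two-sided fit by limma 3.58.1 (R 4.3.3, eBayes) with the group as its single term, adjusted by Benjamini-Hochberg over all genes at a threshold of 0.05. No filter on dim genes was used. The step was tested on simulated data. The 10 genes, the lists and the promoter patterns were chosen with earlier results of these data known. Named were all 10 genes, the 5 bright genes with the highest r to CD180, list genes past the threshold and, of the pathway lists and the dendritic list, the 3 smallest p. Other genes were named as background for cell type or pathway after their values were seen (CNPY3, TLR10 and the other markers beyond the calls). Alternatives were a replicate block, dim genes left out, the mean of probe sets, _x_at and _s_at left out, a further quantile normalization, centring on 24 housekeeping genes, trend and robust variances, a 3' minus 5' index, all probe sets, an adjusted p under 0.1, and each array left out. Standard errors of further probe sets come from the fit of all probe sets.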

Additional observations from a re-analysis of the deposited data

How the results depend on the processing

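Limma called 115 genes over all, and 321 once dim genes were dropped, 76 for the mean over probe sets, 54 without _x_at and _s_at types, 62 with every probe set tested, 762 with trend and robust variances and 260 at an adjusted p under 0.1. The replicate block gave 0 calls, with 2243 genes at an unadjusted p under 0.05, and with the 3' minus 5' index 0 and 1380. Leaving out 1 array gave 0 to 4 genes. Of the 10 receptor and co-receptor genes 0 were called with the replicate block, with the index and without any 1 array (0 to 0). CD180 and TLR4, 2 genes, were called with dim genes left out, a further quantile normalization, trend and robust variances and an adjusted p under 0.1. Of the 122 pathway genes 1 was called, against 0 with the block (25 at an unadjusted p under 0.05), 0 with the index (11), 6 with dim genes left out, 3 with a further quantile normalization, 10 with trend and robust variances, 5 at an adjusted p under 0.1, and 0 to 0 without 1 array (17 to 25). Deviations of arrays with the same replicate number correlated at -0.055 to 0.016, so no shared deviation by number was seen. This cannot show whether the wells were set up in pairs. CD180 kept its sign in 16 of 16 alternatives (0.70 to 0.77) and was called in 8. With 1 probe set it had to stay at 0.734 where only the block, gene filter, probe sets, variances or threshold changed. Those alternatives do not test its sign. Signs turned for CLEC7A (-0.068) and CTSS (0.001) with the mean of probe sets, for FCAR (-0.044) and NFKBIA (0.019) without _x_at and _s_at types, for IRF3 (0.003) with housekeeping centring, and for TICAM1 with the index (0.23). Leaving out 1 array turned TICAM1, which ran from -0.137 to 0.023, and TLR3, which ran from -0.082 to 0.106. The cause of these changes was not tested. Housekeeping centring moved the median of all genes from 0.0065 to 0.037. The number of arrays, the dim signal of 5 of the 10 genes and the low signal of TLR1 and TLR4 limit what can be read.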

Other observations

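Receptors that share the TIR domain or the leucine-rich repeat with Toll-like receptors were read as well. Of 7 receptors of the interleukin 1 family 0 passed the threshold over all genes, and 1 was bright. This was IL1RAP, the chain shared by several receptors of the family, which read 8.33, 8.36 and 8.46 in DMSO and 8.74, 8.69 and 8.78 in cortistatin A. All treated arrays lay above the controls, at a difference of 0.36 (limma adjusted p = 0.0679). A second bright probe set of the gene stood at 0.39. The dim receptors IL18R1 and IL1RL2 were at 0.26 and 0.24 (limma adjusted p = 0.292 and 0.557), and IL1RL2 was at 0.11 without cortistatin A replicate 1 and at 0.38 without replicate 3. Of 13 further leucine-rich repeat proteins 0 passed. RTN4R, a receptor of myelin proteins, was at 0.32 (limma adjusted p = 0.0720), and the channel subunits LRRC8C and LRRC8A were at 0.18 and -0.17. A further bright probe set of LRRC8C was at -0.19 and one of LRRC8A at 0.03, and with the mean of probe sets the genes were at 0.08 and -0.07.

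Of 17 other pattern recognition receptors 0 passed, with a list median of 0.03. CGAS, the cytosolic DNA sensor, read 6.07, 5.96 and 6.15 in DMSO and 6.42, 6.48 and 6.60 in cortistatin A, with no overlap and a difference of 0.44 (limma adjusted p = 0.0723). A second bright probe set was at 0.25 and a dim one at 0.01, which is the value left without the _x_at and _s_at types. The fungal receptor CLEC7A (0.34) and the immunoglobulin A receptor FCAR (0.25) were dim, and further probe sets of both had negative values. Of 7 dendritic cell markers 0 passed. The lectin CLEC10A (0.31, limma adjusted p = 0.175) and the interleukin 3 receptor chain IL3RA (0.15, limma adjusted p = 0.328) were bright and their groups did not overlap, and LAMP3 was dim and stood at -0.14.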
